A study of Mus musculus with 6 samples.

Results

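NF-kB subunits and the proteins that restrain NF-kB were examined on 6 Affymetrix arrays of 4T1, a mammary carcinoma line of the mouse that is highly tumorigenic and metastatic. The 4T1 cells carried either a control shRNA or an shRNA against NFAT1, the calcium-dependent transcription factor encoded by Nfatc2. Each group held 3 arrays, labelled 1 to 3. All cells were adherent 4T1 cultures selected for 10 days, and the labelling of each sample started from 200 ng of total RNA. The shRNA sequence and whether a population or a clone was used are not given in the sources used here, nor is it stated whether replicate arrays stem from different cultures. The p-values therefore reflect only how far these samples lie apart, and that spread may be technical.

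The members were the genes Nfkb1, Nfkb2, Rel, Rela, Relb, Nfkbia, Nfkbie, Tnfaip3, Bcl3 and Birc3, and every probe set annotated to 1 of these symbols alone was kept. This gave 17 of the 45037 probe sets on the array and covered 9 of the 10 genes. No probe set carried the symbol Nfkb1, which was not analysed here. Of the 17 probe sets, 15 had a mean signal of at least 6, against array medians of 5.42 to 5.48. Values are log2 RMA signals, and differences are NFAT1 shRNA minus control.

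NF-kB is a family of dimeric transcription factors built from the proteins RelA, RelB, c-Rel, p50 and p52, the last pair being cut from the products of Nfkb1 and Nfkb2. In resting cells IkB proteins, such as the products of Nfkbia and Nfkbie, hold the dimers in the cytoplasm, and signals from TNF, interleukin-1 or Toll-like receptors activate the IKK kinases, which mark IkB for destruction. NF-kB then switches on its own inhibitors, among them Nfkbia and Tnfaip3, so the transcripts of these genes are widely used as a readout of its activity, and mammary tumour cells often show it.

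The upstream sequences of these genes are shown first, because several of the members are known NF-kB targets themselves. RefSeq promoters of GRCm38.p6, 300 bases each from 250 before to 50 after a transcript start, were found for 8 of the 10 genes and not for Nfkb1 and Relb. They were searched on both strands for the kappaB consensus decamer, and overlapping matches were joined. A match lay in a promoter of 6 of the 8 genes, where 1388 of 27025 genes with a promoter (5.14%) and 1480 of 32851 promoters (4.51%) held one. Rela and Birc3 had none in this window. A match is a match of letters only. In the lines that follow, capitals mark the matches, and each sequence is read 5′ to 3′ on the gene's own strand, so a match on the other strand appears as its reverse complement.
Nfkb2, chr19:46304637-46304736, + strand: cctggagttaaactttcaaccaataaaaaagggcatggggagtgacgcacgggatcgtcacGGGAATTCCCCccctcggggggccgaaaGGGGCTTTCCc
Rel, chr11:23771000-23771099, − strand: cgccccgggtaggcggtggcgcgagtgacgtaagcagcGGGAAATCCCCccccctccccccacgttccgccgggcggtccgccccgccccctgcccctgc
Nfkbia, chr12:55492648-55492747, − strand: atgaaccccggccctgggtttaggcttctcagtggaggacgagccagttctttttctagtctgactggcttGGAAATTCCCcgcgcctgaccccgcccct
Nfkbie, chr17:45555550-45555649, + strand: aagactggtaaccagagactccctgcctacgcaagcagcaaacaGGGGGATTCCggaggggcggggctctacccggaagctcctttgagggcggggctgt
Tnfaip3, chr10:19015411-19015540, − strand: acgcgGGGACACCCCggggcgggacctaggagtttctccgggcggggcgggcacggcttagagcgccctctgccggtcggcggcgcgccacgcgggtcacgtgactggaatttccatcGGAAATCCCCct
Bcl3, chr7:19822734-19822763, − strand: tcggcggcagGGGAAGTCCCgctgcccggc
The match of Nfkbia ended 20 bases before the transcript start and the nearer match of Tnfaip3 ended 3 bases before it, while the match of Nfkbie lay 106 to 97 bases before the start. The Bcl3 match lay just after the start, at bases 3 to 12 of the transcript. Nfkb2 has 3 listed starts, all with a match, and the sequence shown precedes the first of these and lies inside the gene's annotated span.

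The targeted gene and the cell type were checked on the same arrays. Nfatc2 had 6 probe sets, of which 4 were lower in NFAT1 shRNA cells and none passed at an adjusted p under 0.05 with limma over all probe sets; 1439205_at read 6.05, 6.18 and 5.91 in control and 5.15, 5.43 and 5.29 in NFAT1 shRNA cells, and 1426032_at was higher by 0.35. The probe sets thus disagreed, and arrays are named by their labels. NFAT1 shRNA 1 stood apart from the other NFAT1 shRNA arrays: without it 12.9% of all probe sets passed the limma test, against 0.200% with all arrays. With limma 0 passed without control 1, 2 or 3 or NFAT1 shRNA 2, where 3992, 5086, 4251 and 4290 had an unadjusted p under 0.05. All 8 epithelial markers measured, such as Epcam and Krt18, had mean signals of 9.68 to 13.07. Of 8 leukocyte markers 1 had a mean of at least 6, Csf1r, which ranged from 6.99 on NFAT1 shRNA 1 to 9.01 on NFAT1 shRNA 2, while the pan-leukocyte gene Ptprc read 2.85 to 3.06. Of 5 fibroblast markers, Pdgfra alone was above 6, and of 3 endothelial markers none was. A lower signal in bulk RNA can mean fewer cells with a transcript or less of it in each, and these cannot be told apart here.

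No NF-kB gene changed at this threshold. None of the 17 probe sets passed, where 0.200% of all probe sets did, and 1 had an unadjusted p under 0.05, where 15.7% of all probe sets did. The groups did not overlap on 2 of the 17, both of Nfkb2, where 20.9% of all probe sets had no overlap. The mean was higher in NFAT1 shRNA cells on 10 probe sets and lower on 7, with a median difference of 0.047 against 0.019 over all probe sets. No difference reached 1 in size, and for 15 of the 17 probe sets the 95% interval excluded a 2-fold difference in either direction. The exceptions were Rel and the brighter Tnfaip3 probe set.

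**Figure D1:**
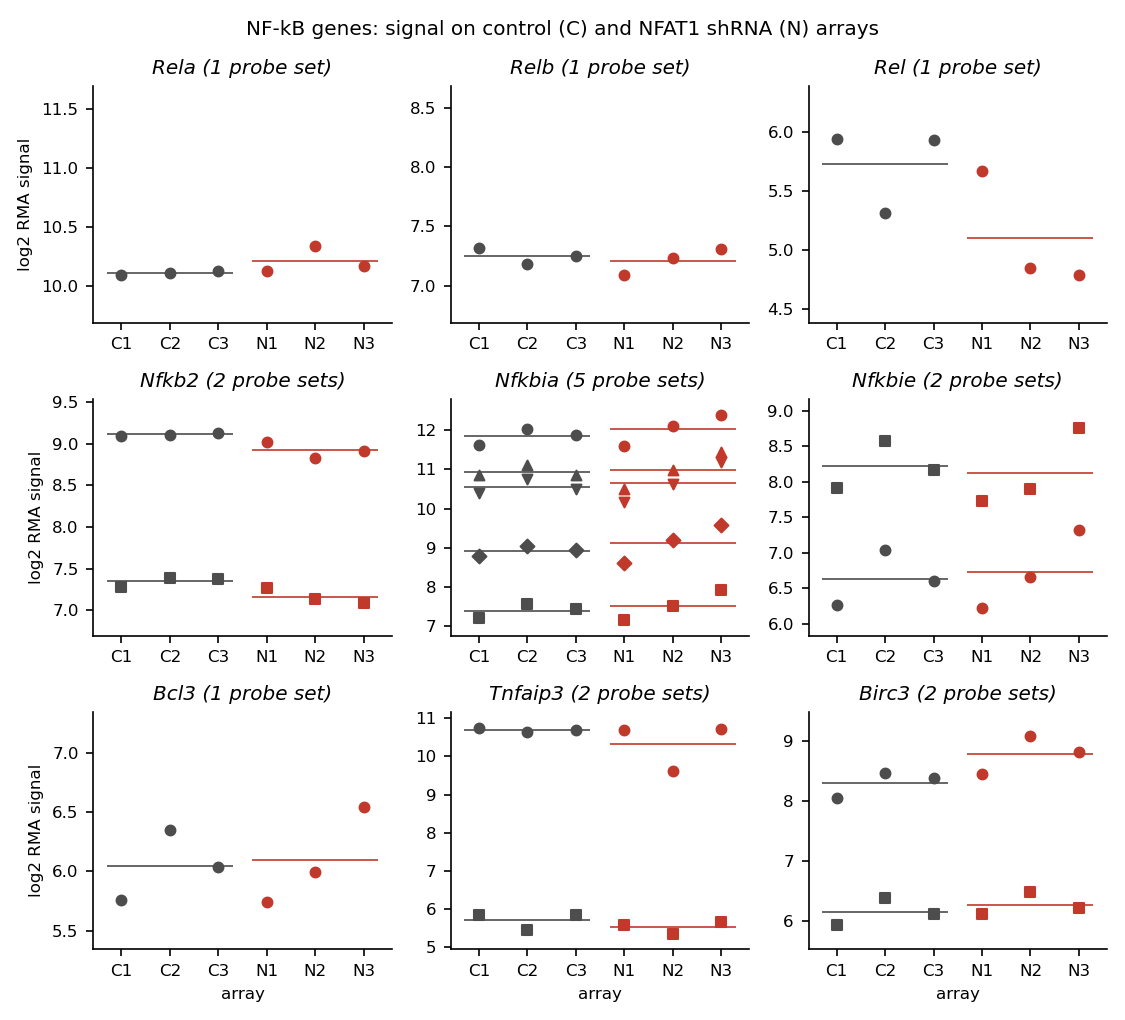
Log2 RMA signal of each of the 17 probe sets (1 marker shape per probe set within a panel) on control arrays C1 to C3 (grey) and NFAT1 shRNA arrays N1 to N3 (red), with horizontal lines at group means and a separate axis range in each panel. Rela and Relb are nearly level, while Nfkbia, Nfkbie and Bcl3 vary between the arrays of both groups and are highest on N3.

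Among the subunits, Rela, which encodes the main activating subunit p65, read 10.09, 10.11 and 10.13 in control and 10.13, 10.34 and 10.17 in NFAT1 shRNA cells. The control arrays differed by less than 0.04, and NFAT1 shRNA 2 alone stood clearly above them. The difference was 0.10 ± 0.09 (SE, n = 3 each; limma adjusted p = 0.582), with a 95% interval of -0.11 to 0.31. Relb, which encodes the partner of p52 in the non-canonical pathway, read 7.32, 7.19 and 7.25 in control and 7.09, 7.23 and 7.31 in NFAT1 shRNA cells. NFAT1 shRNA 1 lay below all controls and the other 2 lay within their range, and the difference was -0.04 with an interval of -0.26 to 0.18.

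Nfkb2, the precursor gene of p52, was the member whose groups were apart on both of its probe sets. On 1425902_a_at the signals were 9.10, 9.10 and 9.14 in control and 9.02, 8.84 and 8.92 in NFAT1 shRNA cells. On 1429128_x_at they were 7.28, 7.39 and 7.37 in control and 7.27, 7.13 and 7.10 in NFAT1 shRNA cells. Every NFAT1 shRNA array thus lay below every control array, by only 0.02 at the closest on the dimmer probe set. The differences were -0.19 ± 0.08 and -0.18 ± 0.09 (SE, n = 3 each), or 87.7% and 88.0% of control, and neither passed (limma adjusted p = 0.332 and 0.350). Groups lay apart with NFAT1 shRNA lower on 9.33% of all probe sets, and the x in the second name marks a probe set that can bind other transcripts.

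Rel, which encodes c-Rel, had the largest difference of the members. Its 1 probe set read 5.94, 5.31 and 5.93 in control and 5.67, 4.84 and 4.79 in NFAT1 shRNA cells. NFAT1 shRNA 2 and 3 lay below all controls, whereas NFAT1 shRNA 1 lay within their range. The difference was -0.63 ± 0.28 (SE, n = 3 each; limma adjusted p = 0.337), with an interval of -1.30 to 0.04. The signal is dim, with an NFAT1 shRNA mean of 5.10 that is under the medians of the arrays, a range in which RMA compresses differences. Without NFAT1 shRNA 1 Rel differed by -0.91 and passed (adjusted p = 0.0340, over a range of 0.0340 to 0.638 in all settings tried), in a setting where 12.9% of all probe sets passed.

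**Figure D2:**
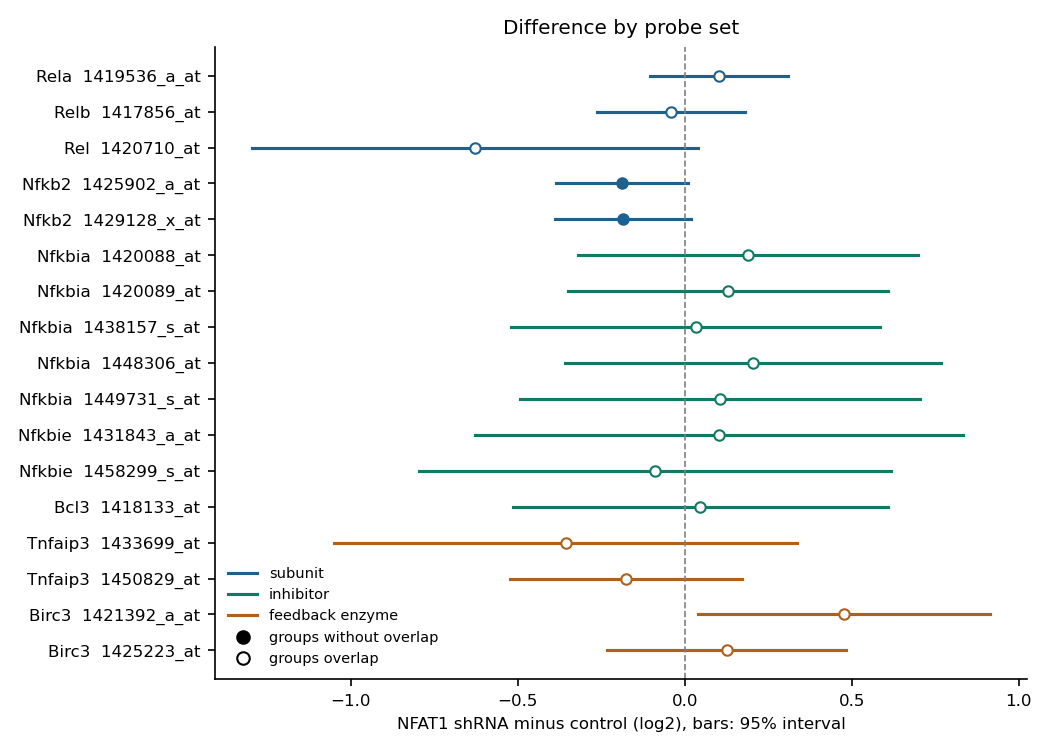
Difference between group means (NFAT1 shRNA minus control, log2) for the 17 probe sets, with bars for the 95% interval from limma; filled points mark probe sets whose 3 NFAT1 shRNA arrays all lie on one side of the 3 control arrays. Filled points occur for Nfkb2 alone, and of the 17 intervals that of the brighter Birc3 probe set, 0.04 to 0.91, leaves out 0 before adjustment for the number of probe sets.

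The IkB inhibitor genes Nfkbia, Nfkbie and Bcl3 showed almost no difference between group means and wide, shared variation between arrays. Nfkbia encodes IkB-alpha, the inhibitor that NF-kB induces to switch itself off, and was read by 5 probe sets with differences of 0.03 to 0.20 (limma adjusted p from 0.683 to 0.957). On the brightest, 1420088_at, the signals were 11.63, 12.02 and 11.87 in control and 11.59, 12.12 and 12.39 in NFAT1 shRNA cells, a difference of 0.19 ± 0.21 (SE, n = 3 each). NFAT1 shRNA 1 lay below all controls and NFAT1 shRNA 2 and 3 above them. On 1448306_at the signals were 8.78, 9.04 and 8.95 in control and 8.61, 9.19 and 9.58 in NFAT1 shRNA cells, with the same arrays at the ends. The mean difference depended on single arrays in both directions. Without NFAT1 shRNA 3, 4 of the 5 probe sets averaged lower in NFAT1 shRNA cells (-0.20 to -0.023) and 1420088_at differed by 0.010. Without NFAT1 shRNA 1 all 5 differed by 0.27 to 0.46, and none passed with limma, where 12.9% of all probe sets did. The sign of 1438157_s_at also turned without control 1 (-0.016) or control 3 (-0.010).

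Nfkbie encodes IkB-epsilon, a further NF-kB-induced inhibitor. On 1458299_s_at it read 7.92, 8.58 and 8.16 in control and 7.73, 7.90 and 8.77 in NFAT1 shRNA cells, and on 1431843_a_at 6.27, 7.03 and 6.60 against 6.23, 6.65 and 7.32. The NFAT1 shRNA arrays spanned the whole control range on both. The differences were -0.09 ± 0.30 and 0.10 ± 0.31 (SE, n = 3 each; limma adjusted p = 0.903 and 0.890), and their signs disagreed. Bcl3 encodes a nuclear IkB protein that binds p50 and p52 on DNA and can activate as well as repress. It read 5.76, 6.35 and 6.03 in control and 5.74, 5.998 and 6.55 in NFAT1 shRNA cells, a difference of 0.05 ± 0.24 (SE, n = 3 each; limma adjusted p = 0.938).

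The 8 probe sets of Nfkbia, Nfkbie and Bcl3 placed the arrays in the same way. Each was lowest on control 1 and highest on control 2 within the control group, and lowest on NFAT1 shRNA 1 and highest on NFAT1 shRNA 3 within the other. This placing was picked out after the values were seen, and 7.23% of all probe sets show it. It was found on none of the other 9 member probe sets. On both Tnfaip3 probe sets the control order was the opposite, highest on control 1 and lowest on control 2. Relative to the control mean, the 8 probe sets read -0.37 to -0.10 on control 1, 0.12 to 0.40 on control 2, -0.49 to -0.24 on NFAT1 shRNA 1 and 0.49 to 0.69 on NFAT1 shRNA 3. The 5 probe sets of Nfkbia read 1 gene and are not independent of each other. On the NFAT1 shRNA arrays these 8 probe sets spanned from 0.76 to 1.09, where the median span of the 19407 probe sets with a mean signal of at least 6 was 0.44.

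**Figure D3:**
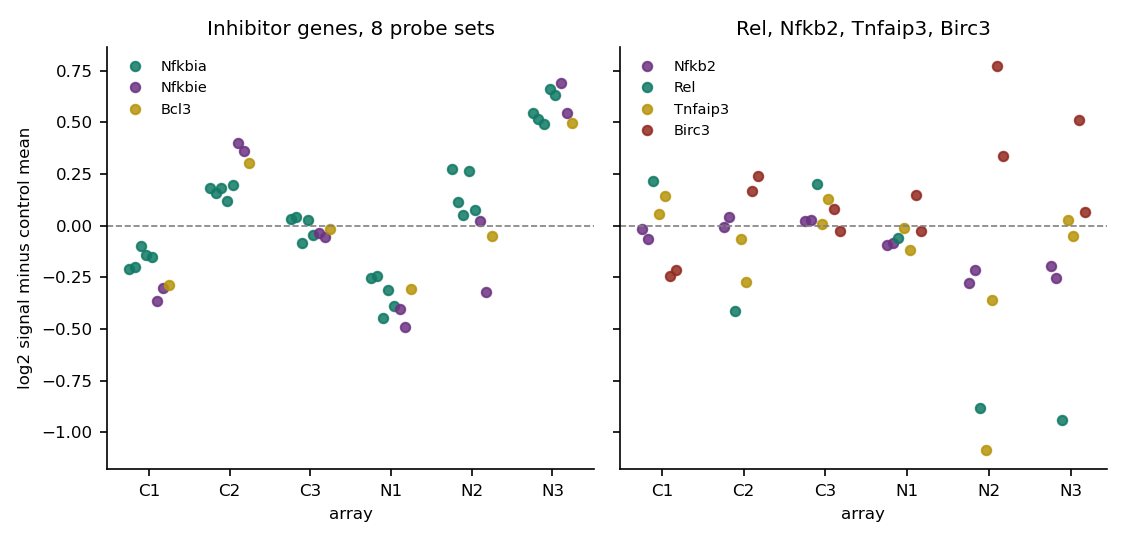
Log2 signal minus the mean of the 3 control arrays for each probe set on each array, with the 8 inhibitor probe sets on the left and those of Rel, Nfkb2, Tnfaip3 and Birc3 on the right; points at 1 array are spread sideways for legibility. The inhibitor probe sets lie close together on N1, at -0.49 to -0.24, and on N3, at 0.49 to 0.69, whereas the genes on the right scatter in both directions on N2.

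Mean signals of the feedback enzymes were lower for Tnfaip3 and higher for Birc3 in NFAT1 shRNA cells, but no probe set of either gene passed. Tnfaip3 encodes A20, a ubiquitin-editing enzyme that shuts down signalling from TNF receptors. Its brighter probe set, 1433699_at, read 10.75, 10.63 and 10.70 in control and 10.68, 9.61 and 10.72 in NFAT1 shRNA cells. NFAT1 shRNA 2 was about 1 log2 unit below all other arrays, and the control arrays spanned 0.12. The group difference of -0.36 ± 0.29 (SE, n = 3 each; limma adjusted p = 0.563) rested on that array, and without it the difference was 0.0070. The second probe set, 1450829_at, read 5.86, 5.44 and 5.84 in control and 5.59, 5.35 and 5.66 in NFAT1 shRNA cells, with NFAT1 shRNA 2 again lowest, there by 0.09.

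Birc3 encodes cIAP2, a ubiquitin ligase that takes part in TNF receptor signalling and restrains cell death, and had the only unadjusted p under 0.05 among the members. On 1421392_a_at it read 8.06, 8.47 and 8.38 in control and 8.45, 9.07 and 8.81 in NFAT1 shRNA cells. NFAT1 shRNA 2 and 3 lay above all controls and NFAT1 shRNA 1 lay just below control 2. The difference was 0.48 ± 0.18 (SE, n = 3 each; limma adjusted p = 0.297), or 1.39-fold with a 95% interval of 1.03-fold to 1.89-fold. On 1425223_at the difference was 0.13 ± 0.15 (SE), with signals of 5.94, 6.39 and 6.13 in control and 6.13, 6.49 and 6.22 in NFAT1 shRNA cells. Without NFAT1 shRNA 1 the brighter probe set differed by 0.64 and passed with limma, as did 12.9% of all probe sets in that setting. Its adjusted p was 0.0431 there, over a range of 0.0431 to 0.609 in all settings tried.

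The rest of the pathway was described with 1 probe set a gene, the brightest, over 18193 genes, of which 0.511% passed with limma, 17.1% had an unadjusted p under 0.05 and 22.8% had groups without overlap. None of the 75 genes measured in the 4 lists that follow passed. Of 18 receptors and adaptors, 1 was higher and 2 lower at an unadjusted p under 0.05, and 5 had groups without overlap. Tirap, an adaptor of Toll-like receptors, read 10.20, 10.16 and 10.23 in control and 9.63, 9.56 and 9.73 in NFAT1 shRNA cells, a difference of -0.55 ± 0.08 (SE, n = 3 each; limma adjusted p = 0.0535). Its groups were tight and lay apart. Ltbr encodes the lymphotoxin receptor at the head of the non-canonical pathway, which yields p52. Ltbr read 8.79, 8.75 and 8.77 in control and 8.17, 8.39 and 8.19 in NFAT1 shRNA cells. It too was lower on all 3 arrays, by 0.52 ± 0.09 on average (SE, n = 3 each; limma adjusted p = 0.0744).

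The largest higher means among the receptors were those of Tnfrsf1b, the second TNF receptor, and Tlr4, the lipopolysaccharide receptor. Tnfrsf1b read 6.89, 7.94 and 7.60 in control and 7.39, 9.19 and 8.89 in NFAT1 shRNA cells, a difference of 1.01 ± 0.50 (SE, n = 3 each; limma adjusted p = 0.345). It was 0.56 over the mean of its probe sets, and ran from 0.67 without NFAT1 shRNA 2 to 1.56 without NFAT1 shRNA 1. Tlr4 read 7.37, 7.96 and 7.57 in control and 7.03, 8.52 and 8.59 in NFAT1 shRNA cells, a difference of 0.42 ± 0.43 (SE, n = 3 each; limma adjusted p = 0.621). It was 0.23 over the mean of its probe sets, and 0.15 without NFAT1 shRNA 3, 0.18 without NFAT1 shRNA 2 and 0.92 without NFAT1 shRNA 1. In both genes NFAT1 shRNA 1 lay with or below the controls and the other NFAT1 shRNA arrays lay above them.

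Of 13 kinases and ubiquitin ligases, 2 were higher and 1 lower at an unadjusted p under 0.05, none after adjustment with limma. Map3k7, the gene of the kinase TAK1 that activates IKK, read 8.36, 8.32 and 8.50 in control and 7.81, 7.96 and 7.98 in NFAT1 shRNA cells, a difference of -0.48 ± 0.09 (SE, n = 3 each; limma adjusted p = 0.0990), and 5 of its 6 probe sets were lower. Over the mean of its probe sets the difference was -0.25 (limma adjusted p = 0.323). Ikbkg, the gene of the IKK scaffold NEMO, read 8.002, 8.15 and 7.98 in control and 8.16, 8.62 and 8.70 in NFAT1 shRNA cells, a difference of 0.45 ± 0.15 (SE, n = 3 each; limma adjusted p = 0.238), with 6 of 6 probe sets higher. Over the mean of its probe sets the difference was 0.17 (limma adjusted p = 0.378). Rnf31, a catalytic subunit of the linear ubiquitin ligase, differed by 0.39 (0.20 to 0.53 over the left-out arrays), and the IKK kinase gene Ikbkb by -0.03.

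Of 13 other inhibitors, 1 was higher at an unadjusted p under 0.05 and none passed with limma. This was Tax1bp1, an A20 partner, which differed by 0.32 ± 0.13 on its brightest probe set (SE, n = 3 each; limma adjusted p = 0.286), while 3 of its 4 probe sets were lower and the mean of its probe sets differed by 0.013. Pdlim2, a ubiquitin ligase for RelA, read 7.63, 8.29 and 7.96 in control and 7.89, 8.84 and 9.28 in NFAT1 shRNA cells, a difference of 0.71 ± 0.36 (SE, n = 3 each; limma adjusted p = 0.351). It ran from 0.41 without NFAT1 shRNA 3 to 1.10 without NFAT1 shRNA 1. The nuclear IkB gene Nfkbiz differed by -0.38 (-0.56 to -0.18 over the left-out arrays) and the deubiquitinase gene Cyld by -0.22 (-0.36 to -0.14).

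Among 31 genes that NF-kB is known to activate, 15 averaged higher and 16 lower, and the median difference was -0.035 against 0.043 over all genes. With limma none passed, and 3 were higher and 5 lower at an unadjusted p under 0.05. Csf2, the gene of the growth factor GM-CSF, read 5.17, 5.57 and 5.39 in control and 6.29, 7.23 and 7.38 in NFAT1 shRNA cells, a difference of 1.59 ± 0.29 (SE, n = 3 each; limma adjusted p = 0.0887). Gadd45b, a stress response gene, read 10.82, 10.70 and 10.78 in control and 9.47, 8.14 and 9.82 in NFAT1 shRNA cells, a difference of -1.63 ± 0.41 (SE, n = 3 each; limma adjusted p = 0.161). The chemokine gene Cxcl10 read 5.82, 8.82 and 7.42 in control and 5.11, 4.88 and 5.48 in NFAT1 shRNA cells, a difference of -2.20 ± 0.70 (SE, n = 3 each; limma adjusted p = 0.220), which was -1.46 without control 2. The groups of these 3 genes did not overlap, and the controls of Cxcl10 were 3 log2 units apart. Lcn2, which encodes lipocalin 2, read 4.37, 9.99 and 8.82 in control and 6.07, 10.25 and 10.50 in NFAT1 shRNA cells. Its difference of 1.21 ± 1.75 (SE, n = 3 each, limma adjusted p = 0.735) lay well inside the spread within each group. The NFAT1 shRNA array was the higher at each replicate number. With the replicate block Lcn2 did not pass either (limma adjusted p = 0.0687). Without NFAT1 shRNA 1 the genes Csf2, Gadd45b, Tirap, Ltbr, Map3k7, Ikbkg, Tnfrsf1b, Tlr4, Tax1bp1 and Pdlim2 passed among the genes named here, as did 18.4% of all genes.

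**Figure D4:**
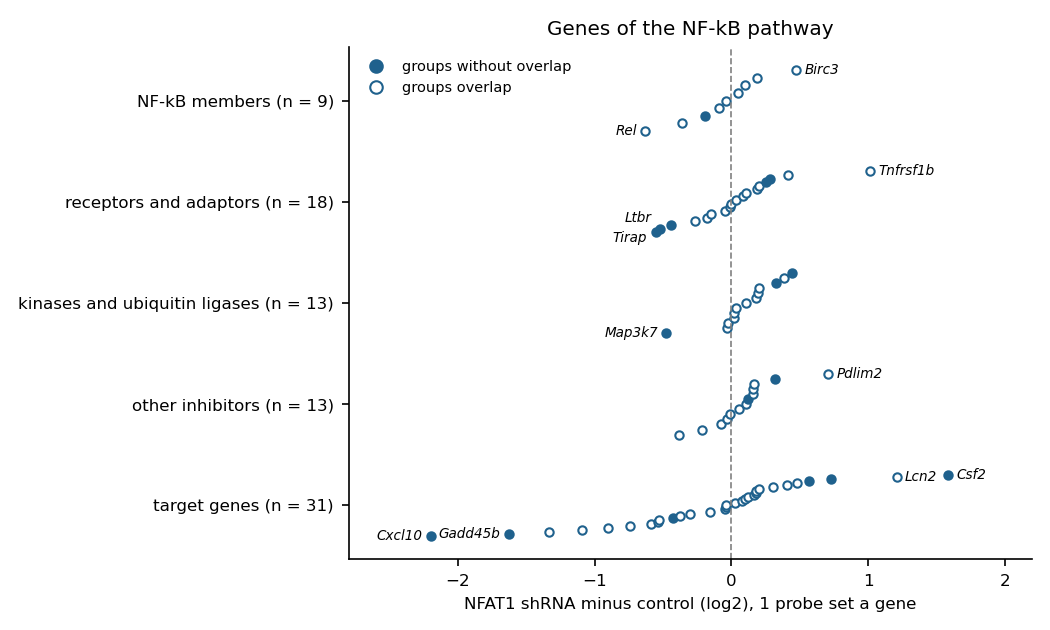
Difference between group means (log2, 1 probe set a gene) for the measured NF-kB genes and the genes of 4 pathway lists, 1 point a gene, sorted within each list; filled points mark groups without overlap. Most genes lie within 0.5 of 0, and the target genes range from -2.20 (Cxcl10) to 1.59 (Csf2).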

How the data were processed

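The authors deposited log2 signals of 45037 probe sets on 6 arrays, which the submitters' processing notes credit to RMA (version not given in the sources used here). RMA subtracts background, forces the arrays to like distributions and summarises probes, so a shift shared by most transcripts would be hidden and dim signals are compressed. Groups and replicate numbers came from the labels.

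Symbols came from the platform annotation: 34945 probe sets had 1 symbol, 932 several and 9160 none. The comparison used limma 3.58.1 (lmFit, eBayes) under R 4.3.3, without covariates or a filter, 2-sided, with Benjamini-Hochberg adjustment over all probe sets, or over 18193 genes for the pathway lists (the probe set with the highest mean). Intervals are unadjusted 95% intervals. Promoters were searched with Python 3.11.15. Every member probe set was reported; of each pathway list the text names any gene that passed and the 2 largest higher and 2 largest lower differences with a group mean of at least 6. The members and lists were chosen with earlier results of these data known.

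On simulated data with 45037 probe sets, limma recovered 8% of log2 changes of 0.5, 66% of 1, 92% of 2 and 100% of 4 (50 each), with 4 false calls. The simulated noise was independent and had the same spread in both groups. On the arrays, the median SD of probe sets with a mean of at least 6 was 0.233 in NFAT1 shRNA and 0.116 in control. The real arrays also shared deviations, so these rates may not hold for them. For arrays the number of samples, not depth, sets the precision. Alternatives were other scaling, a filter, variance prior, array weights, the replicate block, left-out arrays and other choices of probe sets.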

Additional observations from a re-analysis of the deposited data

How the results depend on the processing

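The count of member probe sets that passed was 0 in all settings except without NFAT1 shRNA replicate 1, where it was 2 (Rel and Birc3), for a range of 0 to 2 over the left-out arrays. For member genes it was 0 to 2 over the left-out arrays and 2 with array weights (Rel and Birc3), where 18.6% of all genes passed. Pathway genes that passed numbered 0 to 15 over the left-out arrays (15 without NFAT1 shRNA replicate 1, where 18.4% of all genes passed), 14 with array weights, 6 with the replicate block (4.35% of all genes), and 1 each with a further quantile normalization (Tirap; 0.588%), probe sets averaged by gene (Tirap; 0.374%), and with control 3 and NFAT1 shRNA 1 both left out (Csf2; 2.24%). Member probe sets without overlap numbered 2 to 7 over the left-out arrays (5 without control 2, where 31.5% of all probe sets had none, and 7 without NFAT1 shRNA 1, where 43.5% did). There were 7 with both arrays left out, where 51.6% did. Without _s_at, _x_at and _a_at probe sets it was 0 of 9, where 20.1% of all probe sets had none. That choice drops both Nfkb2 probe sets.

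Other scaling turned no member's sign. Leaving out single arrays turned it for Bcl3 (-0.18 to 0.22), the Nfkbia probe sets 1420089_at (-0.065 to 0.32), 1438157_s_at (-0.20 to 0.27), 1448306_at (-0.023 to 0.46) and 1449731_s_at (-0.16 to 0.35), the Nfkbie probe sets 1431843_a_at (-0.19 to 0.36) and 1458299_s_at (-0.41 to 0.11), Relb (-0.093 to 0.021) and Tnfaip3 1433699_at (-0.55 to 0.0070). No sign turned for Rela (0.040 to 0.14), Tnfaip3 1450829_at (-0.31 to -0.085) or Birc3 1425223_at (0.017 to 0.25). With both arrays left out 1458299_s_at read 0.085 and Relb 0.021. Lcn2 ran from -0.47 to 2.64 and Ikbkb from -0.13 to 0.10 over the left-out arrays. Ikbkb read 9.17e-06 with a further quantile normalization, 0.073 with array weights and 0.096 with both arrays left out, and Cyld 0.056 with the mean of its probe sets. The causes were not tested. The replicate numbers were not taken as pairs because the labels state no pairing. Deviations of same-numbered arrays correlated at 0.62, 0.51 and 0.05. NFAT1 shRNA 1 correlated at -0.58 with control 2, and NFAT1 shRNA 2 at -0.52 with control 1. NFAT1 shRNA 3 correlated better with control 2 (0.27) than with control 3, and at -0.31 with control 1. Whether same-numbered arrays belong together was not tested. With the replicate block 3.18% of all probe sets passed and 0 members did with limma, 2 of them at an unadjusted p under 0.05.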

Other observations

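Several NF-kB target genes varied more between arrays of 1 group than most genes did. The 3 control arrays spanned at least 1 log2 unit for 10 of the 31 target genes, where 240 of 18193 genes (1.32%) did so. These 10 were the chemokine genes Ccl2, Ccl5, Ccl20, Cxcl1, Cxcl2, Cxcl5 and Cxcl10, the cytokine genes Csf3 and Il1a, and Lcn2, and on each of them control 1 read lowest and control 2 highest. Cxcl5, a chemokine that attracts neutrophils, read 10.20, 11.94 and 11.32 in control and 9.18, 10.25 and 11.32 in NFAT1 shRNA cells. Ccl5, which attracts T cells and monocytes, read 7.44, 9.33 and 8.63 in control and 6.61, 6.91 and 7.87 in NFAT1 shRNA cells. Cxcl1 read 10.53, 11.80 and 11.24 in control and 10.75, 11.30 and 11.89 in NFAT1 shRNA cells. On the NFAT1 shRNA arrays 11 of the 31 target genes spanned at least 1 log2 unit, where 7.11% of all genes did. The shares over all genes include dim ones, and the gene lists were chosen with earlier results of these data known. A wide span with control 1 lowest and control 2 highest was also seen outside the target genes. The fibroblast marker Pdgfra read 6.30, 7.90 and 7.47 in control and 6.82, 8.44 and 7.88 in NFAT1 shRNA cells, and Tnfrsf1b and the kinase gene Ikbke spanned at least 1 log2 unit on the control arrays in the same order. Of the 5 fibroblast markers 1, Pdgfra, had a mean signal of at least 6. The summed linear signal of the 5 was 167 to 325 in control and 207 to 439 in NFAT1 shRNA cells. The wide span was that of Pdgfra alone. Dcn, Lum, Pdgfrb and Thy1 spanned 0.16, 0.074, 0.038 and 0.37 on the control arrays. On the NFAT1 shRNA arrays they spanned 0.14, 0.17, 0.19 and 0.11. None of them had control 1 lowest and control 2 highest. The part of fibroblast markers in the spread was not tested.

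The placing of arrays seen for Nfkbia, Nfkbie and Bcl3, lowest on control 1 and NFAT1 shRNA 1 and highest on control 2 and NFAT1 shRNA 3, was shown by 13 of the 31 target genes, including Ccl2, Ccl20, Cxcl1, Cxcl5, Icam1, Irf1, Lcn2 and Mmp9. Other target genes, among them Ptgs2, Gadd45b, Sod2 and Vcam1, had the opposite order on the controls, highest on control 1 and lowest on control 2. Their control spans were narrower, at 0.30, 0.12, 0.09 and 0.03. The placing was shown by 5 of 13 other inhibitors, 5 of 13 kinases and ubiquitin ligases and 2 of 18 receptors and adaptors. Among cell type markers it was shown by 2 of 8 epithelial, 1 of 8 leukocyte, 0 of 5 fibroblast and 0 of 3 endothelial genes. The share over all genes, dim ones included, was 10.1%. These counts were made after the pattern had been seen, genes are not independent of each other, and a cause was not tested. A kappaB match lay in a promoter of 10 of the 23 target genes with a promoter at hand, where 5.14% of all genes with a promoter held one. Among the other lists it lay in 5 of 11 other inhibitors, 4 of 18 receptors and adaptors and 1 of 11 kinases and ubiquitin ligases. Whether the matches bear on the placing of arrays was not tested.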
